A study of Mus musculus with 9 samples.

Results

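The CXC chemokines described here are 10 mouse genes, Cxcl1, Cxcl2, Cxcl5, Cxcl9, Cxcl10, Cxcl12, Cxcl13, Cxcl14, Cxcl16 and Pf4, followed in sorted prostate cells. Every probe listed under these names in the scanner files was taken. That gave 12 of the 41174 probes on the array, which stand for 27666 names. The name in the file matched 11 probes, and Pf4, listed under its older name Cxcl4, was matched by its transcript accession. The genes were picked with their differences between the sorted groups already known, so those differences are given as a description with no p-value, and their calls are counted only beside the share called over the whole array.

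The study set a sorted fraction of primary prostate cells from BL6 mice, which the labels call stem cells, against cells lacking the sort markers. The marker-positive group (3 arrays) was lineage-negative and carried CD44, CD133, Sca-1 and CD117 on its surface. The marker-negative group (6 arrays) was lineage-negative and lacked all of these proteins. Both groups were freshly isolated and untreated, and the ages of the mice are not given in the sources used here. Nothing in the labels says whether arrays came from separate or pooled mice, so the spread between arrays may be partly technical. RNA was amplified, labelled with Cy5 and hybridised together with Cy3-labelled Universal Mouse Reference RNA from Stratagene. A level below is the log2 ratio of Cy5 to Cy3, so it is a level relative to that reference for 1 probe and cannot be set against the level of another probe. A difference is the marker-positive mean minus the marker-negative mean of these log2 ratios, with its standard error (SE) from limma.

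Facts of the arrays bear on several results. Cy5 was well above background, by the scanner software's flag, for 45.5% to 69.3% of probes on marker-positive arrays and 47.5% to 69.5% on marker-negative arrays. Over all 41174 probes, tested or not, marker-positive replicates 1 and 2 correlated at r = 0.92. Marker-positive replicate 3 correlated with them at r = 0.61 and 0.58, and with the marker-negative arrays at 0.49 to 0.67. Its share of probes with Cy5 well above background was the lowest of the 9 arrays, at 45.5%. Marker-positive replicates 1 and 2 had 67.3% and 69.3%. Replicate 3 lay alone on its slide, so slide and array cannot be told apart for it, and differences without it are given below. Slides 1 and 2 held both groups, and differences within each are given too. With slide as a fixed block, only the arrays on slides 1 and 2 set a difference. Among the marker lists, 5 of 13 macrophage genes and 3 of 7 mast cell genes were higher in marker-positive cells, while 6 of 13 lymphocyte genes and 3 of 9 luminal and secretory epithelial genes were lower. Of 6 basal epithelial genes 1 was higher. These marker counts passed an adjusted p of 0.05 in limma, which 3.23% of all genes did, made up of 1.56% higher and 1.67% lower. The same shares apply to every list count at that threshold below. Some list counts below are also given at an unadjusted p of 0.05 in limma. The share of all genes at that level was not computed, so nothing is read from those counts. In sorted bulk RNA, fewer cells of a type and less RNA per cell cannot be told apart.

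Chemokines are small secreted proteins that direct cell migration through G protein-coupled receptors. The CXC family is named for a pair of cysteines near the N terminus with another residue between them. Members with a glutamate-leucine-arginine motif before these cysteines, such as Cxcl1, Cxcl2 and Cxcl5, draw neutrophils through Cxcr2. Cxcl9 and Cxcl10 are induced by interferons and draw activated T cells and NK cells through Cxcr3. Cxcl12 holds stem and progenitor cells in their niches through Cxcr4 and is also bound by the scavenging receptor Ackr3. In the prostate, Cxcl12 is best known as a product of stromal cells.

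By the probe coordinates of build mm7, 7 of the 10 genes lie on chromosome 5. Exons and introns of that build were not used here. On the plus strand, the probes stand at chr5:90732453-90732512 for Cxcl5, chr5:90744523-90744582 for Pf4, chr5:90882059-90882118 for Cxcl1 and chr5:90894748-90894807 for Cxcl2. The Cxcl1 and Cxcl2 probes start 12.7 kb apart, and those of Cxcl5 and Pf4 12.1 kb apart. On the minus strand lie Cxcl9 at chr5:92310412-92310471 and Cxcl10 at chr5:92334002-92334061, with starts 23.6 kb apart. The Cxcl13 probe lies further along on the plus strand at chr5:95174192-95174251.

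The other genes stand alone on their chromosomes in this set. Cxcl12 had probe 1 at chr6:117207552-117207611 and probe 2 at chr6:117200799-117200858, both on the plus strand and listed for different transcripts of the gene. Cxcl14 has its probe at chr13:55377968-55378027 on the minus strand. Cxcl16, also on the minus strand, had probe 1 listed at chr11:70537593-70540334, an interval wider than the probe, and probe 2 at chr11:70535852-70535911.

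Promoters of 8 members, all but Cxcl5 and Cxcl16, were found in the RefSeq table of build GRCm38.p6, which gives 250 bases before to 50 bases after each gene's start. Both strands were searched for the NF-kappaB site, for the interferon-stimulated response element (GAAA, any 2 bases, GAAA) and for the gamma-activated site TTCNNNGAA. The sequences below, 5′ to 3′ on the gene's strand, are those of Cxcl1, Cxcl2 and Cxcl10, whose levels moved together over arrays, of Cxcl9, the neighbour of Cxcl10, and of Cxcl14, with capitals marking every match. Cxcl1 is at chr5:90890995-90891294 on the plus strand and Cxcl2 at chr5:90903649-90903948 on the plus strand. Cxcl10 is at chr5:92348840-92349139, Cxcl9 at chr5:92328030-92328329 and Cxcl14 at chr13:56296502-56296801, all on the minus strand.
Cxcl1: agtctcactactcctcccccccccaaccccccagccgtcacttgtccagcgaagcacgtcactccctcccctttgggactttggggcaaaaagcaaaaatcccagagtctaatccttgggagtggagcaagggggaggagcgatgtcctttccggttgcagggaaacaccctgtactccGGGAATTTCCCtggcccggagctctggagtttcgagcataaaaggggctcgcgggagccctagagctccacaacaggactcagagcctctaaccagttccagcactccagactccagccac
Cxcl2: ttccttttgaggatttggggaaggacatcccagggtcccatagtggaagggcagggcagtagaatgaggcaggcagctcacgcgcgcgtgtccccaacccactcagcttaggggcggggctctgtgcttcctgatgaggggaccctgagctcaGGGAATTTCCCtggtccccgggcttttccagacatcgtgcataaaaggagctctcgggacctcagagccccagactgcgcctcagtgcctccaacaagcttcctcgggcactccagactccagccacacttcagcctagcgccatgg
Cxcl10: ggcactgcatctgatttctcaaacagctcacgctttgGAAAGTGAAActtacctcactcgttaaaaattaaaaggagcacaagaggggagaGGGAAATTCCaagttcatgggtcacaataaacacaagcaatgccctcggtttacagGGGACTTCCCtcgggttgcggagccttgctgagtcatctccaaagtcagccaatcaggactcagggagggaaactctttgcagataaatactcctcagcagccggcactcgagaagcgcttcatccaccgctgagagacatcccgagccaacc
Cxcl9: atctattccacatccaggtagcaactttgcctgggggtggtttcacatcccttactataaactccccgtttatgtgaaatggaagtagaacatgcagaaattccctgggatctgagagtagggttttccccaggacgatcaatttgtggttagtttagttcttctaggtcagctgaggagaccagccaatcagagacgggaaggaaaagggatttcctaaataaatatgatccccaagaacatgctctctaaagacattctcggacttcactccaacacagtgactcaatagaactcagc
Cxcl14: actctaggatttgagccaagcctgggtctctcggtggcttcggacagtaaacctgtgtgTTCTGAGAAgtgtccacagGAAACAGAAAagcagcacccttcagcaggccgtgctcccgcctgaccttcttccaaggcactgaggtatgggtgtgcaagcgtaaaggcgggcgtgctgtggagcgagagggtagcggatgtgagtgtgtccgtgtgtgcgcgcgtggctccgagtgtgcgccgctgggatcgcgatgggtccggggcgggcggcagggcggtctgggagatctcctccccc

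The capitals in the Cxcl1 and Cxcl2 promoters are the same run, GGGAATTTCCC, which holds an NF-kappaB site on each strand, overlapping. It begins 71 bases before the start in Cxcl1 and 97 bases before it in Cxcl2. The Cxcl10 promoter holds an interferon-stimulated response element from 213 bases before the start, then NF-kappaB sites from 159 and 103 bases before it. In Cxcl14 the first run in capitals is a gamma-activated site and the second an interferon-stimulated response element. The Cxcl9 window held no match to the patterns searched, and other forms of such elements were not searched for. NF-kappaB sites were in 3 of the 8 member promoters, against 4.51% of all 32851 promoters in the table. The interferon-stimulated response element was in 2 of 8 against 3.44%, and the gamma-activated site in 1 of 8 against 8.3%. A match is a description of letters in the window and not a measurement of binding.

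All 12 probes passed the filter of Cy5 well above background on at least 3 arrays, and 8 of them were above it on all 9 arrays. Of the 12 probes, 3 passed an adjusted p of 0.05 over all 28334 tested probes as higher in marker-positive cells, namely those of Cxcl9, Cxcl14 and Pf4, and 0 as lower. Of all tested probes 3.47% were called, made up of 1.48% higher and 1.99% lower in marker-positive cells. Marker-positive arrays lay wholly above marker-negative ones for 4 of the 12, against 4.82% of all tested probes, and wholly below for 0, against 6.78%. The difference was positive for 11 of 12, against 47.4% of all tested probes. Its median was 1.61 on the log2 scale, against -0.03 over all tested probes. Since the genes were chosen on this contrast, nothing is read from these shares.

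**Figure D1:**
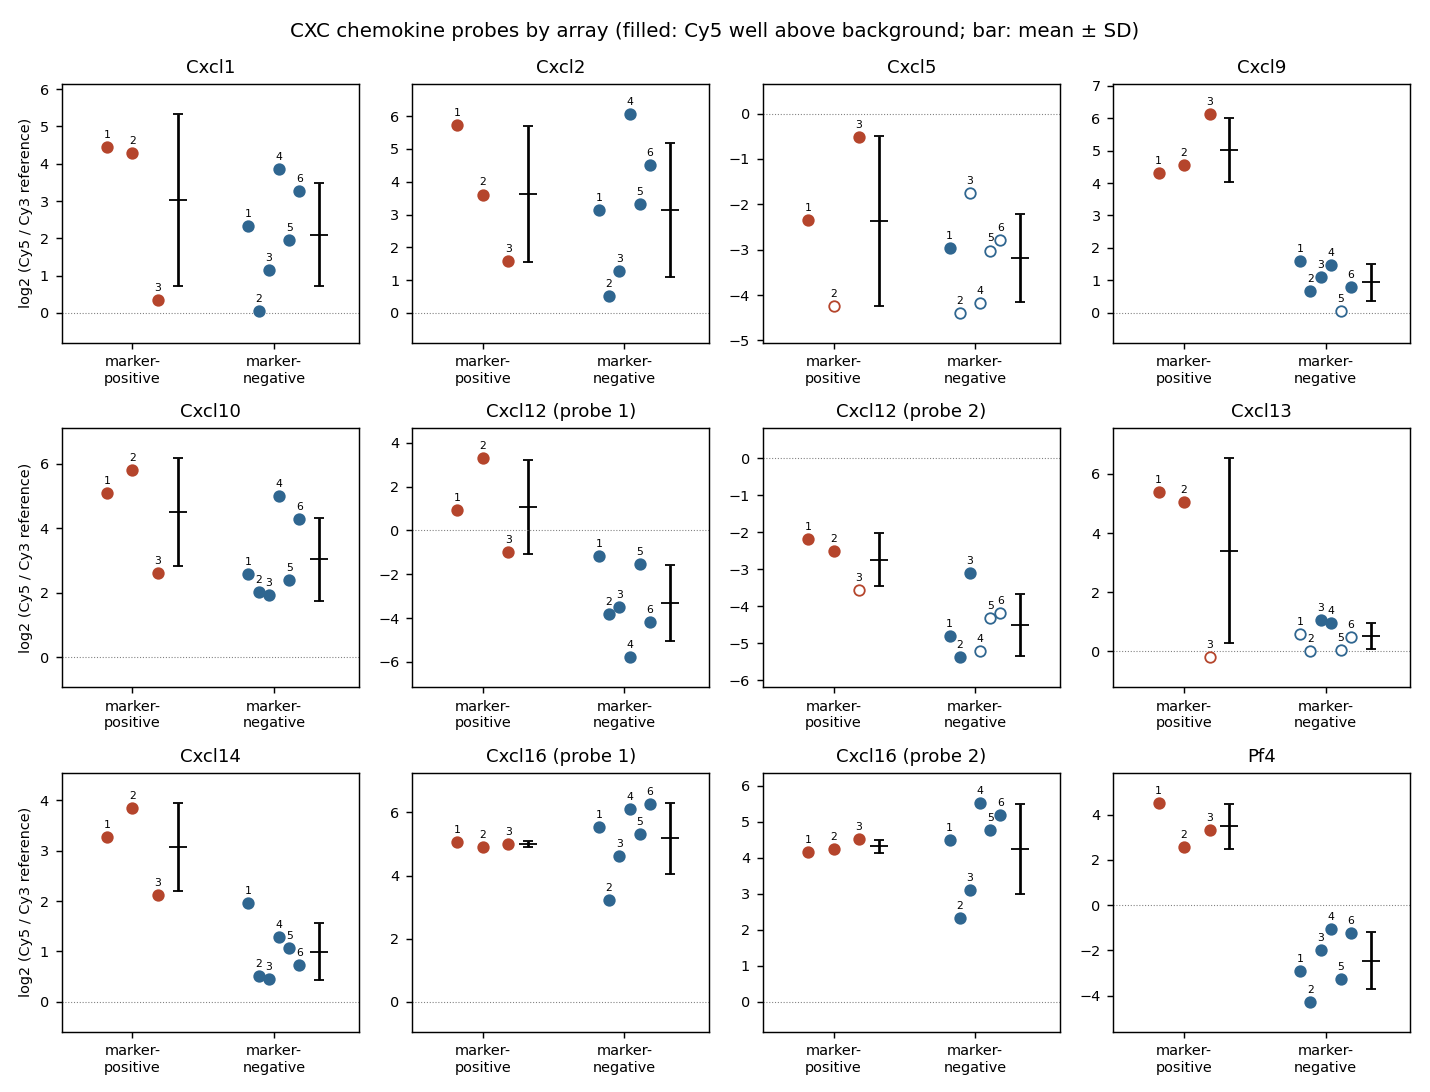
Log2 ratio of Cy5 sample to Cy3 reference for each of the 12 probes, with numbered points for the 3 marker-positive arrays (left, red) and 6 marker-negative arrays (right, blue), and bars for mean ± SD. Open points are arrays where Cy5 was not well above background. Marker-positive points sit apart from and above marker-negative points for Cxcl9, Cxcl12 probe 1, Cxcl14 and Pf4.

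Pf4, platelet factor 4, is stored in platelet granules and is also made by some monocytes and macrophages. It had the largest difference of the 12 probes. Its level was 4.53, 2.58 and 3.31 on marker-positive replicates 1 to 3, against -4.27 to -1.03 with a median of -2.44 on the 6 marker-negative arrays. Every marker-positive array was above the reference RNA, every marker-negative array was below it, and Cy5 was well above background on all 9. The mean was 3.48 ± 0.99 (SD, n = 3) in marker-positive cells and -2.44 ± 1.26 (SD, n = 6) in marker-negative cells, a difference of 5.92 (SE 0.73), or 60.5-fold. Within slide 1 the difference was 7.44, and within slide 2 it was 5.23. In the authors' deposited table Pf4 is 54.9-fold higher in stem than in non-stem cells.

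Lists of cell type markers were read beside Pf4. Of 6 measured megakaryocyte and platelet genes 0 passed the test in either direction, against 3.23% of all genes called, so the 0 is not read as a result. At an unadjusted p of 0.05 in limma 0 passed as well. The mean level of that list ran from 0.19 to 1.04 on marker-positive arrays and from -0.27 to 0.58 on marker-negative arrays. The defining platelet genes Itga2b, Gp1ba, Gp6 and Gp9 were detected on too few arrays to be tested. The macrophage list averaged 3.86 to 4.90 on marker-positive arrays and 0.23 to 2.68 on marker-negative arrays, with no overlap. Its genes Cd163 and Mrc1, scavenger and mannose receptors of tissue macrophages, had Cy5 well above background on all 3 marker-positive arrays and on none of the marker-negative arrays. They passed the filter of at least 3 arrays through the marker-positive group alone. Detection on all 3 of its arrays was thus required, and nothing is read from it. Of the 13 macrophage genes 8, C1qa and Csf1r among them, did not pass. The part of platelets or of macrophages in the level of Pf4 was not tested.

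Cxcl9 was at 4.32, 4.57 and 6.14 on marker-positive replicates 1 to 3, against 0.05 to 1.59 with a median of 0.96 on marker-negative arrays. The groups did not overlap, and replicate 3, low for many other members, was the highest array here. The mean was 5.01 ± 0.99 in marker-positive cells (SD, n = 3) and 0.95 ± 0.57 in marker-negative cells (SD, n = 6). The groups differed by 4.06 (SE 0.46), or 16.7-fold. Without marker-positive replicate 3 it was 3.49, within slide 1 it was 2.73 and within slide 2 it was 3.50. The reference RNA was well above background for this probe on 3 of 9 arrays, so the level against the reference is poorly fixed, and on marker-negative replicate 5 Cy5 was not above background either. With Cy5 alone the direction was the same.

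Cxcl10, a ligand of the same receptor encoded next to Cxcl9, was patterned otherwise. It reached 5.09, 5.81 and 2.61 on marker-positive replicates 1 to 3, against 1.95 to 4.99 with a median of 2.49 on marker-negative arrays. Marker-positive replicate 3 lay among the marker-negative arrays, so the groups overlapped. The difference was 1.46 (SE 0.86) with all arrays, 2.41 without marker-positive replicate 3 and 0.81 without marker-positive replicate 2. On slides 1 and 2 it was 2.50 and 2.30.

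Cxcl12 had its largest contrast on probe 1. The level there was 0.92, 3.31 and -1.005 on marker-positive replicates 1 to 3, against -5.79 to -1.15 with a median of -3.65 on marker-negative arrays. The groups did not overlap, though the lowest marker-positive array and the highest marker-negative array were nearly level. The difference was 4.40 (SE 1.13), or 21.1-fold. It was 5.44 without marker-positive replicate 3 and 3.28 without marker-positive replicate 2. Within slide 1 it was 2.08 and within slide 2 it was 8.11. In the authors' deposited table this probe is 19.9-fold higher in stem cells.

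Probe 2 of Cxcl12 showed a smaller contrast in the same direction. Its level was -2.20, -2.50 and -3.56 on marker-positive replicates 1 to 3, against -5.39 to -3.12 with a median of -4.57 on marker-negative arrays. The lowest marker-positive array overlapped the highest marker-negative one, and Cy5 was well above background on 2 of 3 marker-positive and 3 of 6 marker-negative arrays. The difference was 1.76 (SE 0.52), with 2.62 within slide 1 and 2.80 within slide 2. Over the 9 arrays the 2 probes of Cxcl12 correlated at r = 0.73.

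Cxcl14, a chemokine of epithelia and stroma whose signalling receptor is not settled, lay at 3.27, 3.84 and 2.11 on marker-positive replicates 1 to 3. Marker-negative arrays ran from 0.45 to 1.95 with a median of 0.90. The groups stood apart, by a narrow margin between marker-positive replicate 3 and marker-negative replicate 1. The difference was 2.08 (SE 0.46), or 4.21-fold, and ranged from 1.69 to 2.56 as each array was left out in turn. Within slide 1 it was 1.32 and within slide 2 it was 2.94.

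Cxcl13, the B cell attractant that organises lymphoid follicles through Cxcr5, split the marker-positive arrays. Its level was 5.38, 5.05 and -0.20 on replicates 1 to 3, against marker-negative levels with a median of 0.55 and a maximum of 1.07. Replicates 1 and 2 lay far above every marker-negative array, and replicate 3 lay below all of them with Cy5 not above background. The difference was 2.88 (SE 1.03) with all arrays and 4.68 without replicate 3, but 1.89 without replicate 1 and 2.06 without replicate 2. Within slides 1 and 2 it was 4.78 and 4.57. Cy5 was above background on 2 of 3 marker-positive and 2 of 6 marker-negative arrays, and the reference on 2 of 9.

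Marker lists of several tissues also set replicate 3 apart. The fibroblast list averaged 1.17, 1.21 and -3.73 on marker-positive replicates 1 to 3, and -3.99 to -0.60 on marker-negative arrays. The endothelial list averaged 2.81, 4.33 and 0.74 on the same marker-positive arrays, and 0.41 to 1.39 on marker-negative arrays. The array low in Cxcl1, Cxcl10, Cxcl12 and Cxcl13 among marker-positive ones was also the lowest in both lists. It was the lowest as well in the basal epithelial list, at 2.76, 3.38 and 0.26 on replicates 1 to 3, and in the luminal and secretory list, at 3.28, 3.45 and 0.76. On marker-negative arrays the basal list averaged 0.58 to 2.21 and the luminal and secretory list 4.18 to 5.46. Of 8 fibroblast genes 0 passed the test, with 2 higher and 0 lower at an unadjusted p of 0.05 in limma. Of 8 endothelial genes 1 passed, with 6 higher and 0 lower at an unadjusted p. That gene, Vwf, was at 3.52, 4.87 and 3.56 on marker-positive replicates 1 to 3, and so was not low on replicate 3. The part of these cell types in the levels of the chemokines was not tested.

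Among the neutrophil attractants, Cxcl1 lay at 4.44, 4.29 and 0.35 on marker-positive replicates 1 to 3, against 0.05 to 3.87 with a median of 2.14 on marker-negative arrays. The groups overlapped, since replicates 1 and 2 were above every marker-negative array and replicate 3 was near the lowest. The difference was 0.93 (SE 1.04), less than its error. It was 2.27 without marker-positive replicate 3, 0.22 without replicate 1, 0.30 without replicate 2 and 0.52 without marker-negative replicate 2. Within slide 1 it was 2.12 and within slide 2 it was 2.33.

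Cxcl2, the close relative of Cxcl1, was at 5.71, 3.61 and 1.58 on marker-positive replicates 1 to 3, against 0.50 to 6.08 with a median of 3.22 on marker-negative arrays. The highest array of all was marker-negative, and the groups overlapped throughout. Its difference of 0.50 (SE 1.25) became 1.53 without marker-positive replicate 3 and -0.54 without marker-positive replicate 1. As marker-negative arrays were left out it ran from -0.03, without replicate 2, to 1.09, without replicate 4. Within slide 1 it was 2.59 and within slide 2 it was 0.32.

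Cxcl5, the other neutrophil attractant, was mostly below detection. The level was -2.36, -4.24 and -0.51 on marker-positive replicates 1 to 3, against -4.39 to -1.76 with a median of -2.99 on marker-negative arrays. Cy5 was well above background on marker-positive replicates 1 and 3 and on marker-negative replicate 1 alone. The difference of 0.81 (SE 0.81) equalled its error, and the groups overlapped. Without marker-positive replicate 2 it was 1.75. Of the neutrophil marker list 1 of 5 measured genes, Csf3r, was higher in marker-positive cells. The list averaged 0.51 to 2.07 on marker-positive arrays and -0.39 to 2.38 on marker-negative arrays.

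Cxcl16 is made as a transmembrane protein, from which a soluble ligand of Cxcr6 is shed. Probe 1 gave 5.08, 4.89 and 5.01 on marker-positive replicates 1 to 3, against 3.24 to 6.28 with a median of 5.44 on marker-negative arrays. The marker-positive arrays were tightly grouped inside the wide marker-negative range, with an SD of 0.09 against 1.13. Probe 2 gave 4.17, 4.24 and 4.53, against 2.34 to 5.53 with a median of 4.63. The differences were -0.20 (SE 0.61) on probe 1 and 0.07 (SE 0.67) on probe 2, both well inside their errors. The probes correlated at r = 0.95 over the 9 arrays. Cxcl16 was above the reference RNA on every array of both groups.

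**Figure D2:**
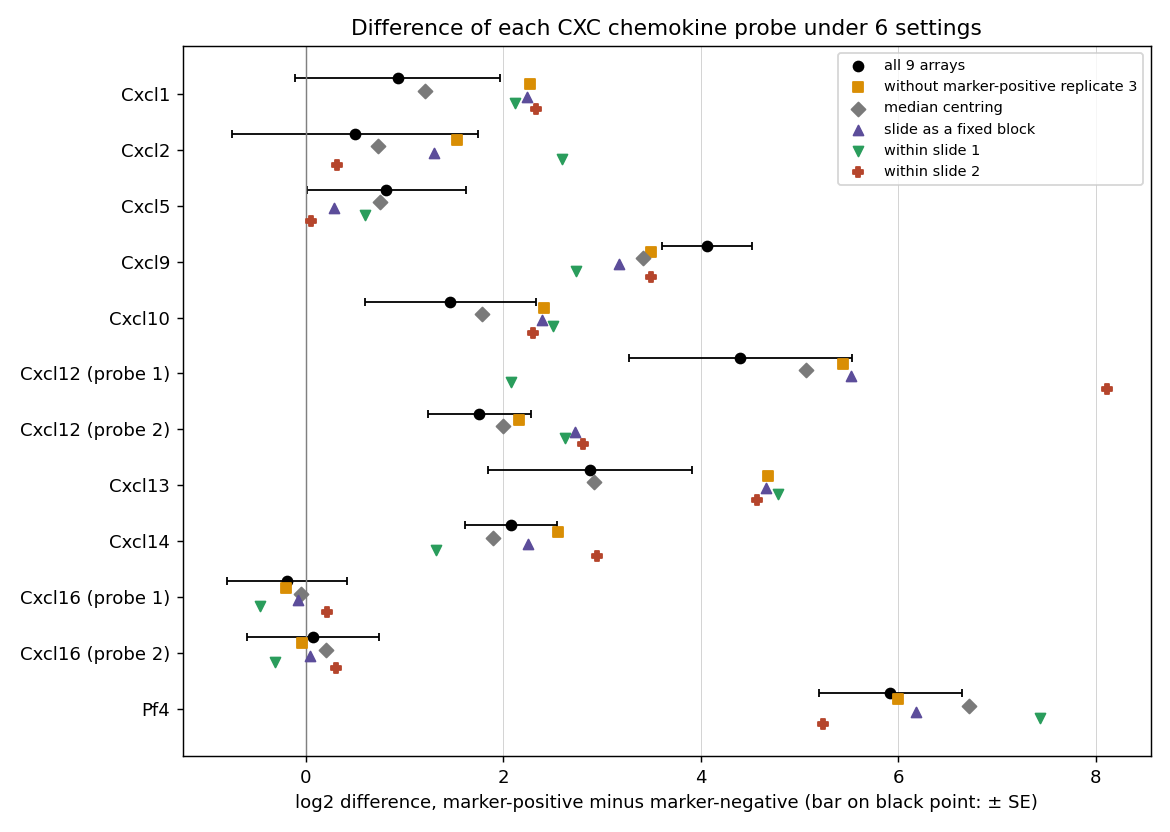
Log2 difference, marker-positive minus marker-negative, for each probe with all 9 arrays (black, bar ± SE), without marker-positive replicate 3, with median centring, with slide as a fixed block, and within slides 1 and 2. Pf4 stays between 5.23 and 7.44, Cxcl13 lies near 2.88 with all arrays and at 4.57 or more on slides 1 and 2, and both Cxcl16 probes stay close to 0.

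Within the marker-negative group some members moved together from array to array. Cxcl1 and Cxcl2 correlated over these 6 arrays at Pearson r = 0.98 (Spearman 0.94), and at r = 0.96 after the 2 arrays farthest from the median of Cxcl1 were left out. Cxcl1 and Cxcl10 gave 0.90 (Spearman 0.94) and 0.94 without those arrays. For Cxcl1 and Cxcl16 the values were 0.96 (Spearman 0.94) and 0.998. Marker-negative replicates 4 and 6 were high in all 4 genes, and replicate 2 was lowest in Cxcl1, Cxcl2 and Cxcl16. Marker lists moved with them: the macrophage list averaged 0.23 on replicate 2 and 2.68 on both replicates 4 and 6, and the lymphocyte list 1.75, 3.48 and 3.83 on these arrays. Replicate 2 was the lowest and replicates 4 and 6 the highest of the 6 arrays in both lists, and their part in the shared pattern was not tested.

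Cxcl9 followed this pattern less closely, with r = 0.34 with its neighbour Cxcl10 and 0.37 with Cxcl1 over the same arrays. Over all 9 arrays Cxcl1 gave r = 0.90 with Cxcl2, 0.91 with Cxcl10 and 0.60 with Cxcl16, where the marker-positive arrays fell off the trend. All arrays share the reference RNA and the normalization, and 45 pairs of members were computed, so these correlations are a description with no p-value.

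**Figure D3:**
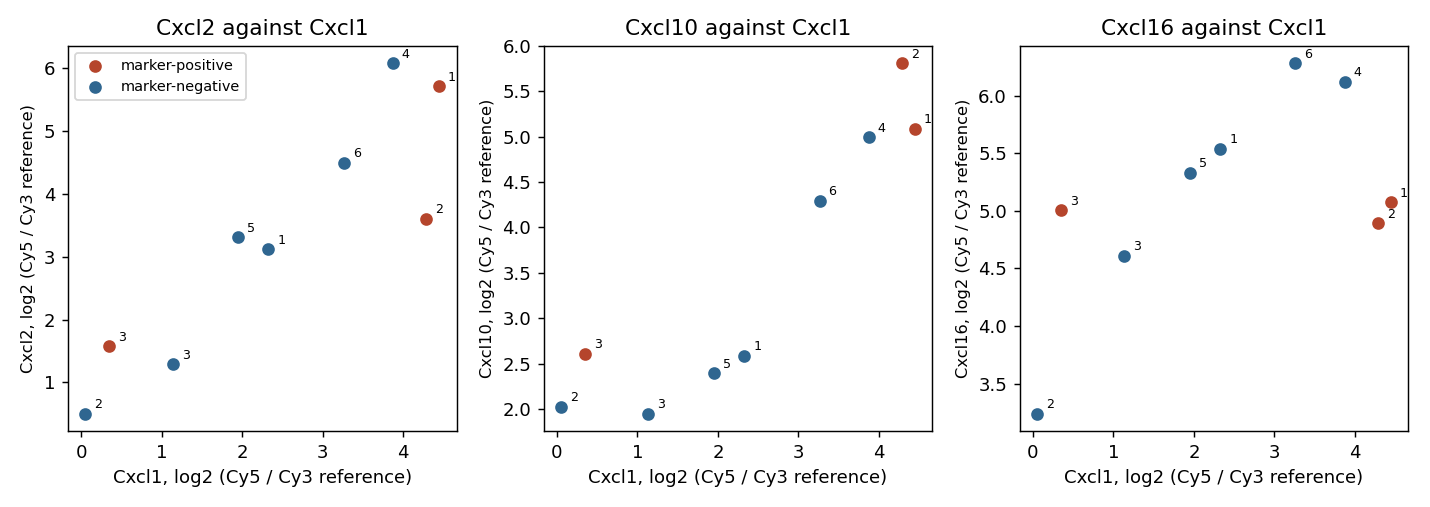
Levels of Cxcl2, Cxcl10 and Cxcl16 (vertical, log2 Cy5 over Cy3) against Cxcl1 (horizontal, same scale), 1 point per array, marker-positive in red and marker-negative in blue, numbered by replicate. The marker-negative points rise together in each panel (r = 0.98, 0.90 and 0.96), while the marker-positive points stay near 5 for Cxcl16 at any Cxcl1 level.

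For each member detected on at least 6 arrays, the 3 genes whose levels over the 9 arrays were most like it were taken from 19808 genes, by Pearson correlation. Pf4 was most like Adam8, a membrane metalloprotease of leukocytes (r = 0.99), then Dok2 (0.98) and Ifi203 (0.98). Cxcl12 was nearest to Afap1l1 (0.99), Gbp6 (0.97) and Kalrn (0.96), and Cxcl14 to Calcrl (0.97), Ralb (0.97) and Tpm4 (0.97). Cxcl9 was nearest to Mcmbp (0.98), Ms4a8a (0.97) and D930030O05Rik (0.97).

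For Cxcl1, Cxcl2, Cxcl10 and Cxcl16 too, the nearest genes were taken over all 9 arrays and not over the marker-negative arrays alone. Cxcl1 was most like Col14a1 (0.97), Tgfbr2 (0.96) and the cytokine signalling inhibitor Socs1 (0.95). Cxcl2 was most like Eid3 (0.99), Skil (0.97) and Nfe2l2 (0.96). Cxcl10 had Prg2 (0.97), 1700008P02Rik (0.95) and the interferon-induced GTPase Gbp4 (0.94). Cxcl16 had Clec5a, Fyb and Itga9, each at 0.94. With 9 arrays and so many genes, high values of r are found for any pattern, and they carry no p-value.

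The remaining CXC, CX3C and XC ligands were read as a list of 7, of which 6 were tested. At an adjusted p of 0.05 in limma 0 passed, with 2 higher and 1 lower at an unadjusted p of 0.05, and the median difference was 0.34 against -0.01 over all genes. Cxcl3, a further neutrophil attractant, was at 4.30, 2.10 and 0.01 on marker-positive replicates 1 to 3, against -0.44 to 1.04 on marker-negative arrays. Its difference was 1.88 (SE 0.75, adjusted p = 0.206) in limma with all arrays, 2.95 without marker-positive replicate 3, where it passed, and 0.80 without replicate 1. Marker-positive replicate 3 also decided the call of Cxcl17, a mucosal chemokine, with a difference of 1.42 (SE 0.58, adjusted p = 0.216) in limma. Without that array the difference was 2.31 and passed, and without marker-positive replicate 2 it was 0.72. For both Cxcl3 and Cxcl17, Cy5 was well above background on 2 of 3 marker-positive and 2 of 6 marker-negative arrays. The reference was so on 5 of 9 arrays for Cxcl3 and on 1 of 9 for Cxcl17. Xcl1, a lymphocyte product that draws dendritic cells, had a difference of -3.03 (SE 1.03, adjusted p = 0.144) in limma, with 2.73, 1.56 and 7.42 on marker-positive arrays against 6.47 to 7.61 on marker-negative ones. Marker-positive replicate 3 lay within the marker-negative range of Xcl1, and without it the difference was -4.79 and passed. Without replicate 2 it was -1.86. The differences of Ppbp, the platelet basic protein, of Cxcl15 and of Cx3cl1 were 0.45, 0.22 and 0.11. Cy5 was well above background for Cxcl15 on 2 of 3 marker-positive and 1 of 6 marker-negative arrays. Cxcl11 was not measured above background on enough arrays to be tested.

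Of 10 receptors 8 were tested, and 0 passed, with 3 higher and 1 lower at an unadjusted p of 0.05 in limma. The neutrophil receptors Cxcr1 and Cxcr2 were not well above background on any array. Cxcr4, the receptor of Cxcl12, averaged 2.003 ± 0.77 in marker-positive cells (SD, n = 3) and -0.02 ± 1.65 in marker-negative cells (SD, n = 6). The limma difference was 2.03 (SE 0.90, adjusted p = 0.249). Ackr3, which scavenges Cxcl12, averaged 2.54 ± 1.32 against 0.39 ± 0.68. Its limma difference of 2.15 (SE 0.58, adjusted p = 0.078) missed the threshold with all arrays, and was 2.91 and passed without marker-positive replicate 3. Ackr1, an endothelial and red cell scavenger of many chemokines, had 2.98 (SE 0.84, adjusted p = 0.090) in limma, and 4.41, called, without that array.

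Cxcr6, the receptor of Cxcl16 on T cells and NK cells, was lower on average, at 1.10 ± 1.69 against 4.52 ± 1.66. The limma difference was -3.41 (SE 1.02, adjusted p = 0.105) and the groups overlapped. Without marker-negative replicate 2 it was -3.97 and passed. Cxcr3, the receptor of Cxcl9 and Cxcl10, had a difference of 0.86 (SE 1.23), and -0.50 without marker-positive replicate 3, on which it was highest at 6.17. The differences of Cxcr5, Cx3cr1 and Xcr1 were -0.40, -0.52 and 0.21, with adjusted p = 0.606, 0.706 and 0.893 in limma.

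**Figure D4:**
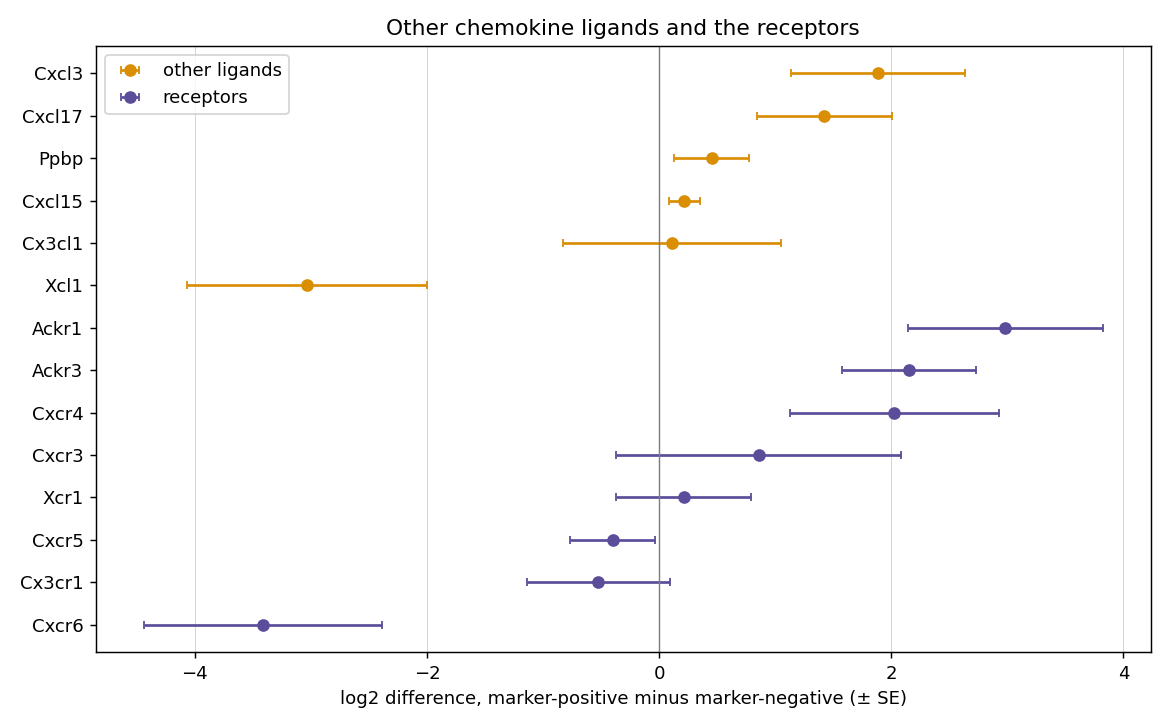
Log2 difference, marker-positive minus marker-negative, with ± SE for the 6 tested other ligands (orange) and the 8 tested receptors (purple). Ackr1, Ackr3 and Cxcr4 lie highest among receptors at 2.98, 2.15 and 2.03, and Xcl1 and Cxcr6 lie lowest at -3.03 and -3.41, with no gene past the threshold.

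In the related CC family 4 of 17 tested ligands were higher in marker-positive cells and 0 lower, against 3.23% of all genes called, with a median difference of -0.02. At an unadjusted p of 0.05 in limma 7 were higher and 1 lower. Ccl8 and Ccl24, which draw monocytes and eosinophils, had limma differences of 6.10 (SE 0.38, adjusted p = 0.000118) and 6.57 (SE 0.54, adjusted p = 0.00055). Ccl24 was above background on 3 of 3 marker-positive and 2 of 6 marker-negative arrays, so its size is set largely against background. Ccl7 followed with 4.43 (SE 0.77, adjusted p = 0.017) and Ccl9 with 3.40 (SE 0.70, adjusted p = 0.032) in limma. On marker-positive arrays 1 to 3, Ccl8 was at 6.34, 4.63 and 5.71, against -0.75 to -0.22 on marker-negative arrays, where it was above background on 3 of 6. The groups did not overlap for any of these 4 genes. With slide as a fixed block 2 of 17 passed, Ccl7 and Ccl9 losing their calls at 5.28 and 3.63. Ccl7 also lost its call without marker-positive replicate 1 (3.42) or 2 (4.62). Ccl9 did so when any single marker-positive array was left out, or any of marker-negative replicates 1, 3 and 5, at 3.18 to 3.77.

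Inducers, subunits and inhibitors of NF-kappaB were a list of 16, of which 15 were tested. 2 of them were higher and 0 lower, against 3.23% of all genes called, with a median difference of 0.62. The difference was positive for 13 of 15, against 47.4% of all tested probes. The list was written with earlier results of these data known, so nothing is read from these shares. At an unadjusted p of 0.05 in limma 6 were higher. The receptor Tnfrsf1a, which binds TNF, had a limma difference of 1.58 (SE 0.31, adjusted p = 0.029), and the adaptor Myd88 had 1.33 (SE 0.29, adjusted p = 0.041). The groups did not overlap for either. The inducing cytokines Il1b, Tnf and Il1a had differences of 0.36, -0.05 and -1.61, and the inhibitor Nfkbia, itself a target of NF-kappaB, had 1.35, none of them passing. The count was 0 when slide was a fixed block and 4 without marker-positive replicate 3. Neither call held when the array left out was marker-positive replicate 1 or 2, or any of marker-negative replicates 1, 2 and 5, and Myd88 also lost its call without marker-negative replicate 3 or 6. The differences then were 1.298 to 1.597 for Tnfrsf1a and 1.18 to 1.41 for Myd88.

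Of 12 genes of the interferon gamma axis 1 was higher and 1 lower, against 3.23% of all genes called, with a median difference of 0.74. Gbp2, an interferon-induced GTPase, was higher by 3.19 (SE 0.38, adjusted p = 0.003) in limma. Ifng itself, the cytokine of T cells and NK cells, was lower, with a limma difference of -4.19 (SE 0.73, adjusted p = 0.017). Its level was 0.08, 0.01 and 2.08 on marker-positive replicates 1 to 3, against 3.20 to 6.15 on marker-negative arrays. Cy5 was above background for Ifng on 1 of 3 marker-positive arrays and 6 of 6 marker-negative arrays. Without marker-positive replicate 1 or 2 Ifng no longer passed, at -3.86 and -3.83. The lymphocyte list averaged -0.11 to 1.28 on marker-positive arrays and 1.75 to 3.83 on marker-negative arrays. The part of lymphocytes in the level of Ifng was not tested. The transcription factor Irf1, itself induced by interferon gamma, had a difference of 1.56 and did not pass. With slide as a fixed block 0 of the 12 passed.

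Enzymes that cut or shed chemokines were a list of 9, of which 7 were tested. Of these 2 were higher, against 3.23% of all genes called, with a median difference of 1.12. Mmp9, a secreted gelatinase that trims several CXC chemokines, had a limma difference of 5.84 (SE 0.60, adjusted p = 0.002). It was above background on 3 of 3 marker-positive arrays and 1 of 6 marker-negative arrays. Ctsg, a granule protease of myeloid and mast cells, had 2.18 (SE 0.51, adjusted p = 0.0499) in limma. It no longer passed when any array but marker-negative replicate 3 was left out, at 1.91 to 2.54. The mast cell list averaged 3.78 to 4.26 on marker-positive arrays and 0.20 to 3.02 on marker-negative arrays, and its part in the level of Ctsg was not tested. Adam10 and Adam17, which shed Cxcl16, had differences of -1.04 and 1.12, and Dpp4, which clips Cxcl10 and Cxcl12, had -0.20, none of them called.

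The authors' deposited table gives its own comparison of the same probes. Its log2 column runs non-stem minus stem while its fold column runs stem over non-stem, with opposite signs in all 43379 rows. After turning the log2 column, its values correlated at r = 0.9996 with the differences above over the 28334 tested probes. No member differed by more than 0.14 on the log2 scale. Of the members not yet given, the authors' deposited table lists 16.5-fold for Cxcl9, 7.30-fold for Cxcl13, 4.19-fold for Cxcl14, 2.72-fold for Cxcl10, 1.89-fold for Cxcl1, 1.78-fold for Cxcl5 and 1.41-fold for Cxcl2, with 3.38-fold for Cxcl12 probe 2 and 1.05-fold for Cxcl16 probe 2, all higher in stem cells. The authors' deposited table has Cxcl16 probe 1 lower in stem cells, with a signed fold of -1.15.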

How the data were processed

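RNA of sorted prostate cells was measured on 9 Agilent 2-colour arrays. Spot intensity values of both channels were deposited by the authors, with version 10.7 of Agilent Feature Extraction named in the submitters' processing notes and 10.7.3.1 per the file headers. The authors' deposited table adds log2 differences, p-value and score columns and a signed fold ratio, whose normalization no source used here states.

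With limma 3.58.1 in R 4.3.3, mean intensities were background-corrected by normexp (offset 50) and ratios normalized by loess within arrays, with control and outlier spots at weight 0. Flagged outliers were then dropped, and repeat spots averaged. Of 41174 probes, 28334 with Cy5 well above background on at least 3 arrays were tested by limma's moderated test (trend, robust, two-sided), with Benjamini-Hochberg adjustment over all of them and a threshold of 0.05. A gene was represented by its brightest tested probe, named through the RefSeq table of GRCm38.p6. The procedure was tested on simulated data with 3 against 6 arrays. It recovered 13 of 100 probes changed by 1 log2 unit and 52 of 100 changed by 2, with 6 false calls. A gene that did not pass is therefore not shown to be unchanged.

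The members and all gene lists were chosen with earlier results of these data known. Of each list, up to 4 called genes with the smallest adjusted p are named, and every tested gene of the lists of other ligands and receptors. Marker genes named in the text and uncalled genes of the other lists were chosen after their values were seen. The number of arrays limits the precision. Protein sequences were not analysed here. Plots were drawn with matplotlib 3.10.9.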

Additional observations from a re-analysis of the deposited data

How the results depend on the processing

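The replicate numbers only count arrays in accession order and pair nothing. The main fit used no block, and slide was a block only in alternative settings. With slide as a fixed block, only the arrays on slides 1 and 2 set the difference, and marker-positive replicate 3 had no part in it. Calls lost or gained there therefore do not describe an adjustment of all 9 arrays. Of 983 probes called with all arrays, 42.7% were higher in marker-positive cells. Median centring called 407, array weights 6353 and slide as a fixed block 209, of which 77% were higher. With each array left out the count ran from 287 to 1939, the latter without marker-positive replicate 3 with 60.6% higher. Called member probes went from 3 to 1 with processed signals and 8 with array weights, and from 2 to 5 as arrays were left out. Other ligands passed in 1 case with Cy5 alone, 3 with weights, 1 with the slide block and 0 to 3 with arrays left out. Receptors gave 2 with weights, 1 with the slide block and 0 to 2 with arrays left out. CC ligands gave 9, 2 and 2 to 5 in the same order. The NF-kappaB list gave 0 with median centring, 1 with no detection filter, 7 with weights, 0 with the slide block and 0 to 4 with arrays left out. The interferon gamma list gave 1 with processed signals, with Cy5 alone and with detection in both channels on all arrays, 5 with weights, 0 with the slide block and 1 to 4 with arrays left out. The enzymes gave 1 with offset 16, no background subtraction, processed signals, median centring, Cy5 alone, no filter, detection in both channels, the slide block or outlier spots kept, and 1 to 2 with arrays left out. The difference of Cx3cl1 turned to -0.25 with processed signals. As arrays were left out it ran from -0.94 to 1.63, and it was negative when the left-out array was marker-positive replicate 1, marker-positive replicate 2 or marker-negative replicate 4. Cxcr3 ran from -0.50 to 1.66 and Xcr1 from -0.22 to 0.54, both negative only without marker-positive replicate 3, and Cxcr5 turned to 0.0365 with the slide block. The causes were not tested. Of the members, Cxcl2 and both Cxcl16 probes changed sign as single arrays were left out, and Cxcl16 probe 2 also under other settings, while all other member probes kept theirs in every setting that tested them. With slide as a fixed block the called members were Cxcl9 (3.17) and Cxcl13 (4.66), and Pf4 (6.18) and Cxcl14 (2.25) were no longer called. Cxcl14 also lost its call with processed signals, median centring, Cy5 alone and no detection filter. As single arrays were left out, it kept its call only without marker-positive replicate 3 or marker-negative replicate 1. Cxcl9 lost its call with processed signals. The median of all probes moved most without marker-positive replicate 3, where it fell by 0.0745. Levels near background, as for Cxcl5, Cxcl13 and Cxcl12 probe 2, and for Cxcl3, Cxcl15 and Cxcl17, limit what their ratios can show.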

Other observations

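Cxcl9, known as an interferon gamma target, and Ifng lay on opposite sides of the comparison. Cxcl9 averaged 5.01 in marker-positive cells and 0.95 in marker-negative cells, while Ifng averaged 0.72 in marker-positive cells and 4.91 in marker-negative cells. Among the marker-positive arrays, replicate 3 had the highest level of Cxcl9 (6.14), of Ifng (2.08) and of the receptor Cxcr3 (6.17). The relation was not tested.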
